A study of Mus musculus with 10 samples.

Results

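Pluripotency genes keep embryonic cells able to form every tissue, and germ cells of the fetus use many of them again. DNA methylation was examined at 10 such genes, Pou5f1, Nanog, Sox2, Utf1, Zfp42, Dppa3, Dppa2, Dppa4, Lin28a and Prdm14, in prospermatogonia, which are germ cells of the testis of the mouse fetus. They were chosen by name, and the CpG cytosines measured within 2 kb either side of any annotated transcription start (GENCODE M21, mm10) were assigned to each. Of the 10 genes, 9 had such CpGs, 404 CpG cytosines among the 1348062 of the whole table, and Nanog had none. For comparison, 15812 of 21938 protein-coding genes had at least 1.

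The data came from reduced representation bisulfite sequencing (RRBS), in which the genome is cut at CCGG, CpG-rich fragments are kept, and bisulfite treatment makes a cytosine without methylation appear as T but leaves a methylated one as C. There were 5 control and 5 arsenic samples. All came from C3H/HeN fetuses in late gestation, whose mothers drank either tap water (control) or tap water with sodium arsenite for the later part of the pregnancy (arsenic). Cells of many fetal testes were taken with magnetic beads and an antibody to the surface protein Thy1 and were pooled into 1 sample, so a value describes a pool and not an animal.

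The question was whether arsenic given to the mother went with a different methylation level at these genes. In the early embryo Pou5f1, Nanog and Sox2 act together in the core network of pluripotency, and Prdm14 helps to set up the primordial germ cells, from which prospermatogonia arise. Methylation of cytosine in a CpG near a start is generally associated with silence of the gene. In the mouse germ line, methylation is largely erased in primordial germ cells and laid down again in prospermatogonia before birth, so the fetal testis is sampled while marks are being rebuilt.

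Depth and purity bear on every value that follows. Total coverage was 44207245 to 66570870 per sample and the median coverage of a CpG 25 to 40, with 11220 to 21083 reads over the 404 cytosines. The lowest coverage was 10 in every sample. Molecular identifiers are not mentioned in the sources used here, and counting intervals cover counting error only. The sample arsenic 1 stood apart, with a mean level over all CpGs of 42.1% against 45.15 to 47.3% in the other 9. The highest of those was arsenic 5. The cell type was checked at 9 promoters that germ cells keep free of methylation and body cells methylate, such as Dazl and Ddx4. All 9 lay between 37.4 and 69.7% on average, 56.5% ± 3.06 (SD, n = 5) in control and 59.4% ± 8.76 in arsenic, with arsenic 1 lowest at 47.2% and arsenic 5 highest at 70.5%. The windows of 7 maternally imprinted genes, whose imprint is erased in male germ cells, averaged 41.6% ± 1.44 in control and 41.1% ± 7.40 in arsenic. They ranged from 18.4% in Plagl1 to 75.8% in Mest, and were set by the starts and not by the imprinted regions. The germline promoter levels go against pools of germ cells alone. The imprinted windows cannot decide this, since their CpGs may lie outside the imprinted regions. The part of other cells in the results was not tested. For each of the 10 genes whose difference moved by over 1.5 times or passed a test without arsenic 1 or arsenic 5, that value is given too.

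The 9 measured genes fell into 3 levels. Sox2, Prdm14 and Utf1 were almost free of methylation, Lin28a and Pou5f1 were intermediate, and Dppa3, Dppa4, Zfp42 and Dppa2 were methylated in about as many reads as not, or more. Over all 10 samples the level (methylated reads over all reads per CpG, averaged over the CpGs of the gene) was 1.63% in Sox2, 2.68% in Utf1, 2.75% in Prdm14, 17.6% in Lin28a, 31.2% in Pou5f1, 46.4% in Dppa3, 54.6% in Dppa4, 57.9% in Zfp42 and 66.6% in Dppa2. In this order only Prdm14 and Lin28a were neighbours whose sample ranges did not overlap. Of the 9 genes, 3 lay under 5% and 5 over 25%, against 39.77% and 32.94% of all protein-coding genes, and their median was 31.2% beside 10.3% for all genes.

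**Figure D1:**
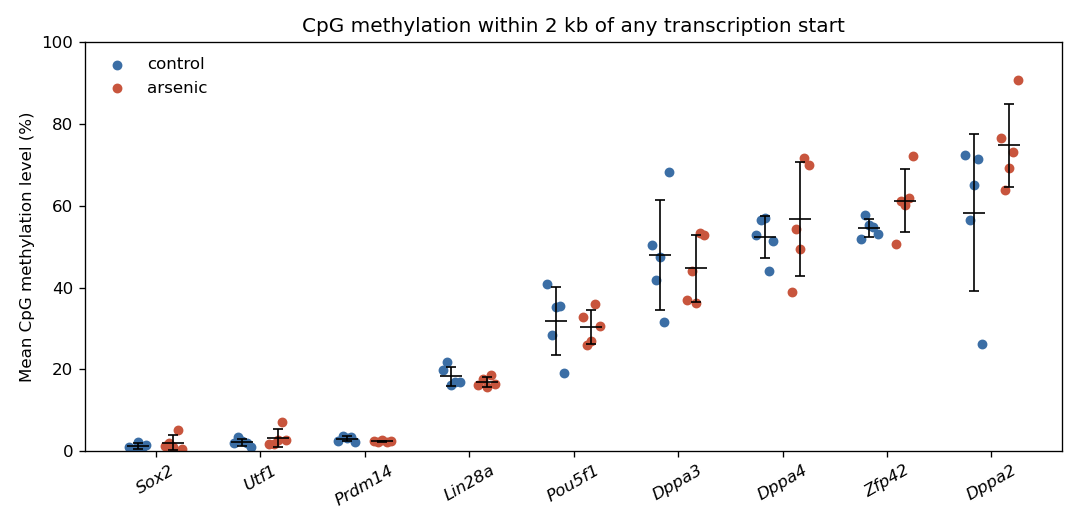
Mean CpG methylation level in percent (vertical axis) of the 9 measured genes (horizontal axis, lowest to highest level), with 1 point per pool and the mean and SD of the 5 control (blue) and 5 arsenic (red) pools. Sox2, Utf1 and Prdm14 lie near 0, Dppa2 and Zfp42 above 50% in most pools, and control and arsenic points overlap in all 9 genes.

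None of the 9 genes passed the test of a difference between control and arsenic. By limma fitted across 15812 protein-coding genes, with Benjamini-Hochberg adjustment over all of them, 0 of 9 passed an adjusted p of 0.05 (smallest 0.857, in Zfp42), and so did 0 of all genes (0% called, smallest 0.263). At an unadjusted p under 0.05 limma called 0 of 9 genes (smallest 0.0737) and 5.8% of all genes. The exact permutation test of the group means over 252 assignments, two-sided, whose smallest possible p is 0.00794, gave 0 of 9 under 0.05, where 6.17% of all genes were under it. The groups overlapped in each of the 9 genes, whereas they did not overlap in 1.1% of all genes. Averaged over the 9 genes the level was 30% ± 2.35 (SD, n = 5) in control and 32.5% ± 4.27 in arsenic, a difference of 2.52 points, and over all protein-coding genes it was 22.6% and 22.5%. The difference was 0.778 points without Dppa2, the only one of the 9 with fewer than 5 CpGs, and 1.23 points without arsenic 5. The median difference of the 9 genes was 0.851 points and that of all genes -0.0244. The 5 genes with a higher mean in arsenic were Sox2, Utf1, Dppa2, Dppa4 and Zfp42, and 48.88% of all genes were higher.

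Pou5f1 encodes Oct4, the transcription factor at the centre of pluripotency, which prospermatogonia also use as a marker. Its annotation on chromosome 17 has 6 starts, the first at 35506018. RRBS reached 7 CpGs of Pou5f1 in 2 groups, each overlapping an exon of its transcripts. The following stretches (GRCm38/mm10, 5′ to 3′ on the gene's strand) show a CpG of each group that differed between the pooled reads of control and arsenic, with the measured CpGs in capitals.
Pou5f1, chr17:35506066-35506095: accaggccccCGgctCGgggtgcccacctt
Pou5f1, chr17:35508047-35508076: ctccggccagtacCGcatccagggtgagtc
The first stretch lies behind the first start, and the last of its capital pairs is the CpG at 35506081. The other one lies between the internal starts, 2043 b downstream of the first start, and holds the CpG at 35508061.

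Pou5f1 as a whole was at 41.0, 28.4, 35.3, 35.6 and 19.2% in control 1 to 5 and at 32.8, 25.9, 26.9, 36.0 and 30.6% in arsenic 1 to 5. The controls held both the highest and the lowest pool, and all arsenic pools lay inside their range. The means were 31.9% ± 8.38 and 30.4% ± 4.15 (SD, n = 5), a difference of -1.45 points (exact permutation p = 0.746). It was -5.83 points by the pooled reads of the gene (exact permutation p = 0.230), and -10.1 points at a coverage of at least 20 in every pool (exact permutation p = 0.143), which leaves only the 4 CpGs between the internal starts. Within Pou5f1 the differences of the CpG groups had opposite signs, and neither passed the test. The 3 CpGs at 58 to 108 b from the first start were at 13.7% ± 5.54 in control and 23.8% ± 10.9 in arsenic (exact permutation p = 0.103), and the 4 CpGs at 2043 to 2171 b were at 45.5% ± 12.1 and 35.4% ± 2.34 (exact permutation p = 0.143). With the first start alone only the first of these groups remained, and the difference of Pou5f1 was 10.1 points upward. It also changed sign, to 0.818 points, without control 1.

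The single CpG at 35506081 was at 0, 0, 7.69, 0 and 0% in control 1 to 5 and at 31.2, 0, 12.5, 33.3 and 28.6% in arsenic 1 to 5, at a coverage of 10 to 32 reads. Arsenic 2 was at 0 like 4 of the controls, so the groups overlapped, while the other 4 arsenic pools were above every control. Its neighbour 5 b upstream was at 9.75% ± 9.70 in control and 17.02% ± 12.7 in arsenic (exact permutation p = 0.357). The CpG at 35508061 went the other way, with 56.6% ± 17.9 in control and 42.7% ± 3.71 in arsenic (exact permutation p = 0.127) at 37 to 83 reads.

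Nanog, the homeodomain factor that works with Oct4, could not be described. Its window of 4080 b around 3 starts on chromosome 6 holds 130 CpG cytosines and 2 CCGG sites (the letters CCGG read the same on both strands), where the median window has 12 sites and 94.96% of windows have at least 1. Of all protein-coding genes, 27.92% had no CpG in the table like Nanog. Its methylation was not measured.

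Sox2, the partner of Oct4 on many of its targets, is a gene of a single exon on chromosome 3 inside an intron of the long RNA Sox2ot. RRBS read 93 CpG cytosines, 17 upstream and 76 in the gene. The upstream run, 722 to 447 b before the start, is shown as the plainest case of a dense, unmethylated stretch, with measured CpGs in capitals.
Sox2, chr3:34649677-34649964: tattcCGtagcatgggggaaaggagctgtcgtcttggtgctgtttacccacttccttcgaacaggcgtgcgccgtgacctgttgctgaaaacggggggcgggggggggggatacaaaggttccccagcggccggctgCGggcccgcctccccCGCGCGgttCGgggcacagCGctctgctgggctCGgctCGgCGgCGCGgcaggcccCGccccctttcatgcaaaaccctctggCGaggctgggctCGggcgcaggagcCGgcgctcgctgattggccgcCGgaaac
Those 17 cytosines averaged 0.685% in control and 0.959% in arsenic.

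Over all 93 cytosines Sox2 was at 0.968, 0.529, 2.34, 0.742 and 1.46% in control 1 to 5 and at 1.34, 2.05, 1.10, 5.21 and 0.586% in arsenic 1 to 5. Arsenic 4 was highest, and the other 4 arsenic pools lay among the controls. The means were 1.21% ± 0.721 and 2.06% ± 1.84 (exact permutation p = 0.444), and without arsenic 4 the difference fell to 0.0629 points. Of the 93 cytosines 88 were under 5% on average and none was over 50%.

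Utf1, a chromatin-bound protein of undifferentiated cells whose gene is a target of Oct4 and Sox2, was likewise low. Its 75 CpG cytosines on chromosome 7 were at 2.10, 3.42, 2.44, 1.89 and 1.09% in control 1 to 5 and at 1.74, 1.69, 2.74, 7.06 and 2.64% in arsenic 1 to 5. By this mean over CpGs arsenic 4 was far above the rest, and the other pools of both groups overlapped. By the pooled reads of the gene arsenic 4 was at 3.59%, below arsenic 3 at 3.71% and close to control 2 at 3.54%. The means were 2.19% ± 0.847 and 3.17% ± 2.23 (exact permutation p = 0.516), and without arsenic 4 the difference was 0.0133 points. The level was not even along the gene. The 71 cytosines at 346 to 769 b from the start, a group that overlaps an exon, were at 1.14% ± 0.630 in control and 1.96% ± 2.36 in arsenic. The 4 cytosines behind the gene, 1673 to 1760 b from the start, were at 20.9% ± 6.41 and 24.7% ± 14.3.

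Zfp42 encodes Rex1, a zinc finger protein used as a marker of naive pluripotent cells. It had 40 CpG cytosines on chromosome 8, 24 upstream of the gene and 16 in its intron, and 37 of them were above 50%. The upstream stretch is printed because it is CpG-rich and yet methylated, and because it carries both Zfp42 CpGs that were called between the groups, the second and the seventh capital pair.
Zfp42, chr8:43307400-43307582: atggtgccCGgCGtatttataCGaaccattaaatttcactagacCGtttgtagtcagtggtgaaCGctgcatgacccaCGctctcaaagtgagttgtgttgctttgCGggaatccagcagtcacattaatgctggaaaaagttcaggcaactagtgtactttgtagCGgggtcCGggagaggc
It is written 5′ to 3′ on the gene's strand, the minus strand of mm10, and all 9 CpGs in it were measured.

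Zfp42 was at 52.0, 57.7, 55.3, 54.8 and 53.0% in control 1 to 5 and at 50.7, 61.1, 60.3, 61.9 and 72.3% in arsenic 1 to 5. Arsenic 1 was the lowest of all 10 pools, and the other 4 arsenic pools were above every control. The means were 54.6% ± 2.19 and 61.3% ± 7.65, a difference of 6.72 points (exact permutation p = 0.0873, limma p = 0.0737, adjusted p = 0.857). Without arsenic 1 the difference was 9.36 points and the groups did not overlap (exact permutation p = 0.00794, limma adjusted p = 0.536). In that comparison 2.74% of all genes did not overlap and 7.29% had an exact permutation p under 0.05. Without arsenic 5 it was 3.97 points (exact permutation p = 0.167). The same pools stood at the ends in the germline promoters, where arsenic 1 was lowest and arsenic 5 highest. So did they over all CpGs, with arsenic 1 at 42.1% and arsenic 5 at 47.3%. The part of this in the Zfp42 values was not tested.

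The higher means of Zfp42 in arsenic were spread along the gene. Of its 40 cytosines 35 had a higher mean in arsenic and 5 a lower one, although neighbouring cytosines share reads and are not independent. The 16 intronic cytosines were at 53.1% ± 5.91 in control and 61.6% ± 7.79 in arsenic (exact permutation p = 0.0714), and the 24 upstream ones at 55.5% ± 4.70 and 61.1% ± 9.20 (exact permutation p = 0.270). In the upstream stretch, the CpG at 43307475 was at 55.5% ± 12.7 in control and 71.9% ± 12.1 in arsenic on the plus strand. The cytosine of the same CpG on the other strand, 1 b away, was at 51.8% and 50.2%. The second CpG called, at 43307570, was at 62.7% ± 12.1 and 79.6% ± 14.2. Across the 11 CpGs of Zfp42 read on both strands the strand means were equal at 58.17%, and 3 CpGs differed by over 10 points between strands, by 32.7 points at most.

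**Figure D2:**
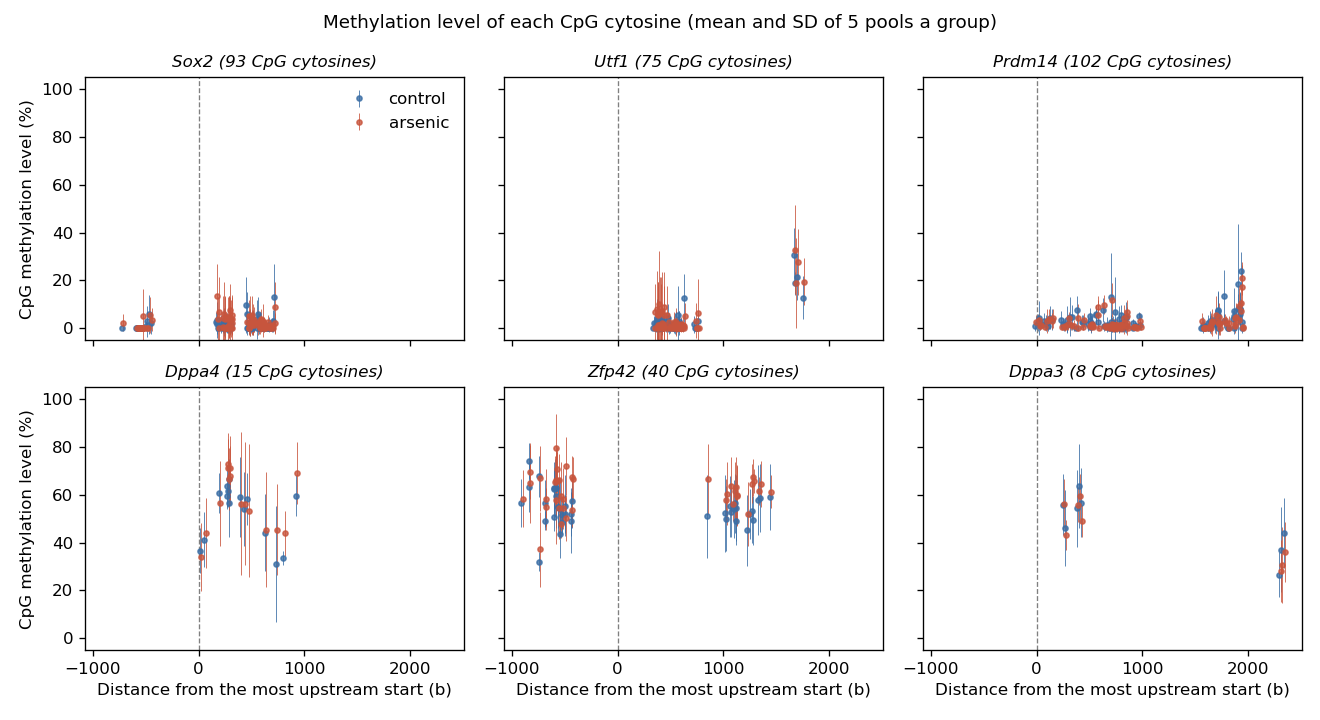
Methylation level in percent (vertical axis) of each CpG cytosine against its distance in bases from the most upstream start, marked by the dashed line (horizontal axis), in 6 genes, as mean and SD of 5 pools for control (blue) and arsenic (red). Sox2, Utf1 and Prdm14 stay near 0 except for a few downstream CpGs, while Dppa4, Zfp42 and Dppa3 lie mostly between 30 and 80% throughout.

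The Dppa genes are named for their expression in pluripotent cells. Dppa2 and Dppa4 are neighbours on chromosome 16 and encode partner proteins that bind DNA and help to activate genes of the early embryo. Dppa3 (Stella) protects methylation of the maternal genome after fertilization and marks primordial germ cells from early on. Dppa2 was read at only 2 CpGs, in an intron upstream of its internal start, and Dppa4 at 15 CpGs in a group that overlaps its exons. Both stretches are shown with the measured CpGs in capitals, that of Dppa4 being the densest run of methylated CpGs in the gene.
Dppa2, chr16:48310103-48310194: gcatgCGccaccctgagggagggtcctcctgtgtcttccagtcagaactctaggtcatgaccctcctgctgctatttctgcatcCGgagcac
Dppa4, chr16:48284002-48284031: ggCGggccCGctCGaagtggccttgCGCGa

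Dppa2 was at 72.6, 56.5, 65.2, 71.4 and 26.1% in control 1 to 5 and at 76.7, 64.0, 69.2, 73.2 and 90.9% in arsenic 1 to 5. Control 5 was far below the rest, arsenic 1, arsenic 4 and arsenic 5 were above every control, and arsenic 2 and arsenic 3 lay among the controls. It had the largest difference of the 9 genes, 16.5 points from 58.4% ± 19.1 to 74.8% ± 10.2 (exact permutation p = 0.111, limma adjusted p = 0.874), and the fewest reads, 28 to 98 per pool. Those reads are summed over the 2 CpGs, and a read that covers both is counted at each. For the 28 reads of control 4 the level of 71.4% has a 95% Wilson interval of 52.9 to 84.75%. This interval takes the counts as independent and can be too narrow. Without control 5 the difference was 8.38 points, and without arsenic 5 it was 12.4 points. The CpG at 48310109, the first capital pair, was at 71.3% ± 21.7 in control and 88.5% ± 10.2 in arsenic, and the other one at 45.4% ± 23.0 and 61.1% ± 13.2.

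Dppa4 was at 52.9, 56.5, 57.1, 44.1 and 51.4% in control 1 to 5 and at 38.9, 54.3, 49.6, 71.6 and 70.0% in arsenic 1 to 5. The arsenic pools included the lowest and the 2 highest values, with the controls between them. The means were 52.4% ± 5.21 and 56.9% ± 13.9 (exact permutation p = 0.524). Without arsenic 1 the difference rose from 4.49 to 8.98 points, and without arsenic 4 it fell to 0.795 points. It was 1.20 points without arsenic 5, the pool highest in the germline promoters and over all CpGs.

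Dppa3 had 8 CpGs on chromosome 6, in groups that overlap its exons. It was at 50.4, 42.0, 47.6, 31.7 and 68.4% in control 1 to 5 and at 36.9, 44.1, 36.2, 53.3 and 52.9% in arsenic 1 to 5. The controls spanned the whole range of both groups. The means were 48.0% ± 13.4 and 44.7% ± 8.29 (exact permutation p = 0.659), and the difference of -3.29 points became 1.80 points without control 5, -1.35 points without arsenic 1 and -5.34 points without arsenic 5. The 5 CpGs at 258 to 424 b from the first start were at 55.3% ± 15 and 52.7% ± 6.36, and the 3 CpGs at 2304 to 2343 b at 35.9% ± 12.6 and 31.5% ± 13.2.

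Lin28a encodes an RNA-binding protein that blocks maturation of let-7 microRNAs and is used by early germ cells. It has 4 starts on the minus strand of chromosome 4 and 62 measured CpG cytosines in 5 groups, which made it the most varied of the 9 genes. The stretches below lie around its internal start at 134012386 and are shown because the largest group differences of Lin28a were there, each with a CpG that differed in pooled reads.
Lin28a, chr4:134012333-134012362: agaaaatgggattccCGccccttctcctgt
Lin28a, chr4:134012989-134013221: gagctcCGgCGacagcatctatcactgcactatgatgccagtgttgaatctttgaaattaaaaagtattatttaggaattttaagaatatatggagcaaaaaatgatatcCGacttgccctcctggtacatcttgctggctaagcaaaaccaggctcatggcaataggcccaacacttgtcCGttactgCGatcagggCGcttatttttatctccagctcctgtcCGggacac
The lone CpG of the first stretch is at 134012347, and in the other one the third capital pair holds the cytosine at 134013111.

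Lin28a as a whole was at 19.8, 21.8, 16.3, 16.9 and 16.8% in control 1 to 5 and at 16.1, 17.6, 15.6, 18.6 and 16.5% in arsenic 1 to 5. Control 1 and control 2 were highest, and the other pools overlapped. The means were 18.3% ± 2.38 and 16.9% ± 1.20, a difference of -1.43 points (exact permutation p = 0.286). Near the first start Lin28a was almost unmethylated, since 35 cytosines at 766 to 1877 b from the first start were at 2.40% ± 0.921 in control and 2.26% ± 0.799 in arsenic. The 9 cytosines farthest inside the gene, in an intron at 7314 to 7941 b, were at 59.7% ± 5.81 and 63.0% ± 6.52.

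Around the internal start of Lin28a both groups of CpGs were lower in arsenic. The 3 cytosines at 6390 to 6548 b from the first start were at 18.7, 23.5, 16.9, 18.98 and 23.4% in control 1 to 5 and at 15.5, 13.9, 5.13, 17.8 and 10.7% in arsenic 1 to 5. Arsenic 4 alone was within the control range. The means were 20.3% ± 2.98 and 12.6% ± 4.90 (exact permutation p = 0.0159, unadjusted, among 19 such groups in the 9 genes). The 12 intronic cytosines at 5626 to 5846 b, upstream of that start, were at 37.1% ± 6.78 and 29.6% ± 3.42 (exact permutation p = 0.0635), with control 1, control 2 and control 4 above all arsenic pools and the rest overlapping.

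The values of Lin28a changed with the window. With 1 kb upstream to 100 b downstream of each start, the distances of the promoter in the study, 15 cytosines were left. They were the 3 and the 12 cytosines of both groups around the internal start, so no other CpGs entered this window. Their means were 33.7% ± 5.65 in control and 26.2% ± 2.23 in arsenic. This difference of -7.52 points was without overlap (exact permutation p = 0.00794, limma adjusted p = 0.836), in a comparison where 1.1% of 12585 genes did not overlap and 5.51% had an exact permutation p under 0.05. With 1 kb either side it was -2.30 points (exact permutation p = 0.0317), and with the first start alone, which leaves out the internal one, it was -0.133 points.

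**Figure D3:**
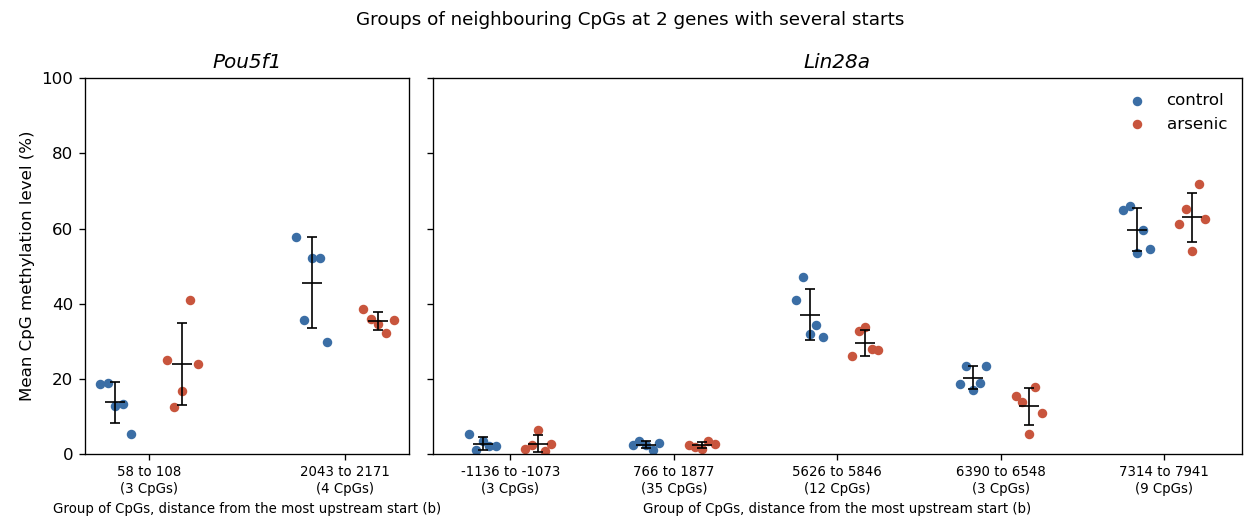
Mean CpG methylation level in percent (vertical axis) of each group of neighbouring CpGs in Pou5f1 and Lin28a (horizontal axis, by distance in bases from the most upstream start, with the number of CpGs), with 1 point per pool and the mean and SD of 5 control (blue) and 5 arsenic (red) pools. The groups of Pou5f1 differ in opposite directions, and in Lin28a the groups at 5626 to 5846 b and 6390 to 6548 b are lower in arsenic while the others are nearly level.

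In Lin28a, as in Zfp42, the strands of a CpG did not always match, and sequence differences of C3H/HeN mice from mm10, which can alter the level read on a single strand, were not checked. The cytosine at 134013111 on the minus strand was at 78.6, 63.1, 69.4, 70.0 and 53.7% in control 1 to 5 and at 38.5, 58.2, 63.2, 42.5 and 42.0% in arsenic 1 to 5. Arsenic 2 and arsenic 3 were within the control range and the other 3 below it. The means were 66.95% ± 9.23 and 48.9% ± 11.04, whereas the cytosine of the same CpG on the plus strand was at 33.2% ± 9.21 and 41.8% ± 15.8. The CpG at 134012347, 39 b behind the internal start, was at 26.9% ± 9.50 in control and 11.4% ± 5.48 in arsenic (exact permutation p = 0.0317).

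Prdm14, the regulator needed for the founding of primordial germ cells, had the most CpG cytosines, 102 on chromosome 1. It had them at -7 to 1949 b from its start, and 88 were under 5%. It was at 2.42, 3.79, 3.21, 3.60 and 2.35% in control 1 to 5 and at 2.43, 2.20, 2.69, 2.38 and 2.41% in arsenic 1 to 5. Control 2, control 3 and control 4 were above all arsenic pools, and control 1 and control 5 among them. The means were 3.07% ± 0.662 and 2.42% ± 0.175, a difference of -0.650 points (exact permutation p = 0.111, limma adjusted p = 0.879). Leaving out each pool in turn gave -0.831 to -0.471 points and exact permutation p of 0.0238 to 0.190. The p was under 0.05 only without control 5 (0.0238, beside 5.77% of all genes under 0.05) and without control 1 (0.0397, beside 5.26%), the 2 controls at the arsenic level.

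Among the 404 cytosines the only one without overlap was in Prdm14, 1909 b inside the gene on chromosome 1 at 13125254, and it is shown for that reason, the measured CpG in capitals on the gene's strand.
Prdm14, chr1:13125240-13125269: ggaggaactgagcttCGttctgtatggagc
It was at 5.56, 9.68, 6.25, 63.6 and 6.67% in control 1 to 5 and at 5.45, 5.00, 0, 2.60 and 3.70% in arsenic 1 to 5. Control 4 was far above all other pools, and the other controls were above the highest arsenic pool (exact permutation p = 0.00794, limma adjusted p = 0.830). The gap was narrow, with control 1 at 5.56% and arsenic 1 at 5.45%. The cytosine of the same CpG on the other strand was also measured, and there the groups overlapped. Of all CpGs, 0.474% were lower in arsenic without overlap. None of the 404 was higher without overlap, beside 0.219% of all CpGs, and 0.693% of all CpGs did not overlap in either direction.

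CpG by CpG, the call used in the study, a logistic regression on pooled reads with q no higher than 0.01 and 10 or more percentage points between the groups, marked 7 of the 404 cytosines (1.73%) as differentially methylated cytosines (DMCs), beside 2.27% of all CpGs. Those lower in arsenic (hypomethylated) were 3 of 404, 1 in Pou5f1 and 2 in Lin28a, beside 1.48% of all CpGs. Those higher (hypermethylated) were 4 of 404, 1 in Pou5f1, 1 in Dppa2 and 2 in Zfp42, beside 0.784%. Sox2, Utf1, Dppa3, Dppa4 and Prdm14 had none. Since 277 of the cytosines were under 5%, where a fall of 10 points cannot occur, the 103 with a mean level of 10 to 90% were also counted, and 7 of them (6.80%) were DMCs beside 3.73% of all such CpGs.

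In that regression every read counts as an independent draw, and how far pools of 1 group differ plays no role. By limma on log2((methylated + 1)/(unmethylated + 1)), where it does, 0 of the 404 cytosines and 0% of all CpGs passed an adjusted p of 0.05 (smallest among the 404, 0.830), with 16 of 404 at an unadjusted p under 0.05 beside 6% of all CpGs. An F test with a factor for extra spread between pools called 0 of 404 and 0% of all CpGs. Each of the 7 DMCs overlapped between the groups. Without arsenic 5 the DMCs were 3.

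CpG content ordered the 9 genes only in part. The ratio of observed to expected CpGs in the window was 0.812 in Sox2, 0.580 in Utf1 and 0.563 in Prdm14, the 3 genes near 0% methylation, and the 923 genes at a ratio over 0.6 had a median level of 1.44%, the 1322 at 0.5 to 0.6 one of 1.80%. Zfp42 departed from this. Its ratio was 0.422, and its level of 57.9% compares with a median of 3.54% (quartiles 1.24 and 13.5%) over the 2853 genes at 0.4 to 0.5. Dppa3, at a ratio of 0.387 and 46.4%, was above the upper quartile of 27.6% for the 5200 genes at 0.3 to 0.4, whose median was 10.3%. Dppa4 (0.268, 54.6%) and Pou5f1 (0.256, 31.2%) lay within the quartiles of 6.17 and 57.3% for 4338 genes at 0.2 to 0.3, and Dppa2, at 0.206, was above them. Levels within 500 b of a start were 57.5% in Zfp42, 54.0% in Dppa3, 57.6% in Dppa4, 5.71% in Lin28a and 2.23% in Sox2. Pou5f1 was lower there, at 18.8% against 40.5% at its CpGs farther from a start.

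**Figure D4:**
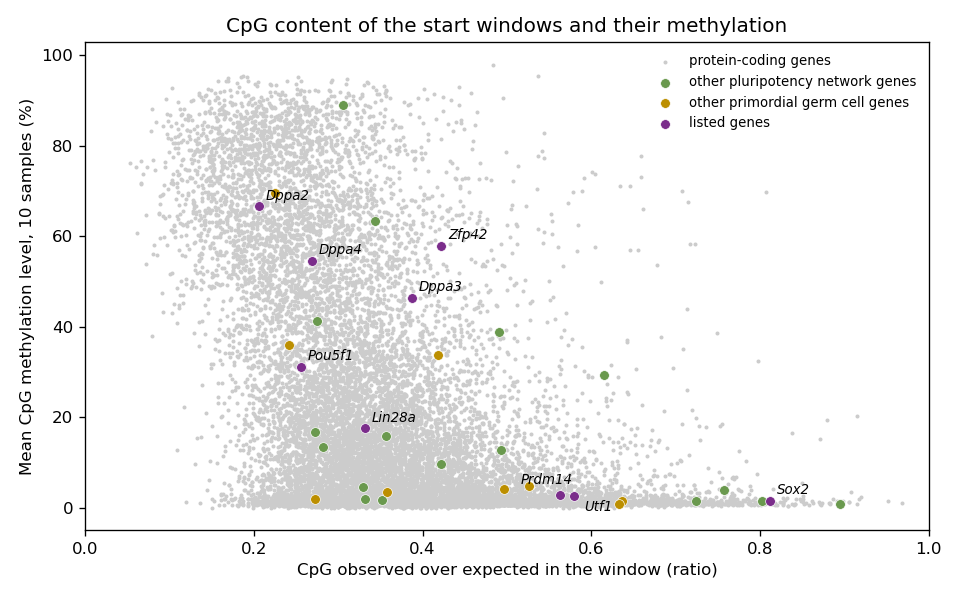
Mean CpG methylation level over 10 samples in percent (vertical axis) against the ratio of observed to expected CpGs in the start window (horizontal axis) for 15812 protein-coding genes (grey), the 9 measured genes (purple, named) and other pluripotency network (green) and primordial germ cell genes (ochre). Sox2, Utf1 and Prdm14 sit at the lower right with other CpG-rich genes, and Zfp42 sits far above most genes of its CpG ratio.

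Further genes of the same pathways also ranged from almost unmethylated to highly methylated. Of 18 pluripotency network genes 17 were measured (Nr0b1 was not) and of 10 primordial germ cell genes 9 (Dnd1 was not), and limma called 0 of the 17 and 0 of the 9, beside 0% of all genes. The highest levels were in Dppa5a (89.0%), Ifitm1 (69.65%) and Tcl1 (63.5%), and the lowest in Trim71 (0.835%), Cxcr4 (0.874%) and Klf4 (1.44%). Ifitm1, encoding a membrane protein of the interferon-induced family found on early germ cells, was at 73.9, 76.0, 74.2, 78.65 and 74.97% in control 1 to 5 and at 55.2, 65.7, 68.0, 63.4 and 66.55% in arsenic 1 to 5. Every arsenic pool was below every control, on 3 CpGs, with means of 75.5% ± 1.91 and 63.8% ± 5.07 (exact permutation p = 0.00794, limma adjusted p = 0.395). It was the only one of these 26 genes without overlap, beside 1.1% of all genes. The mean over the 9 primordial germ cell genes was 17.7 to 18.95% in the controls and 15.5 to 17.3% in the arsenic pools, a difference of -1.93 points, opposite in sign to that of the listed genes. Without Ifitm1 it was -0.700 points and the groups overlapped, at 10.1 to 12.04% in control and 9.54 to 11.97% in arsenic. Klf2, a transcription factor of naive pluripotency, was at 26.2% ± 3.46 and 32.3% ± 5.29 (limma p = 0.0457, limma adjusted p = 0.847, exact permutation p = 0.0714). Only arsenic 1 was within the control range of Klf2, and without it the groups did not overlap, with a difference of 8.36 points (exact permutation p = 0.0159, limma adjusted p = 0.449), where 2.74% of all genes did not overlap. Sall4, a partner of Oct4, was at 39.65% ± 1.25 and 38.2% ± 0.829 (limma p = 0.0628, limma adjusted p = 0.854, exact permutation p = 0.0873). The exact permutation p was 0.0397 for Klf2 without control 4 and 0.0397 for Sall4 without control 2.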

How the data were processed

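RRBS libraries of 5 control and 5 arsenic pools were analysed from 1 deposited table of raw counts, which gives for every CpG cytosine and sample its coverage and how many reads were methylated or not. Per the labels, the authors used Trim Galore 0.6.5, Bismark 0.22.3 and methylKit 1.22.0 with mm10, and kept both strands of a CpG apart. The handling of PCR duplicates is not given in the sources used here. Of 1349101 entries, 1348062 were used, those on autosomes, X and Y, and 99.99% of them lay at a CG of GRCm38.

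The level of a gene was the unweighted mean over its CpGs. Groups were compared by limma 3.58.1 (R 4.3.3), by exact permutation tests and, per CpG, by a likelihood ratio test with Benjamini-Hochberg q. CpGs at most 300 b apart formed a group. Python 3.11.15, numpy 2.4.6, pandas 2.3.3 and scipy 1.17.1 were used, and the scripts were tested on simulated data. The genes and lists were chosen with earlier results of these data known. Named were all listed genes, their DMCs and CpGs without overlap, and, of other pathway genes, the 3 highest, the 3 lowest and the 3 with the smallest limma p. Of 15 body cell genes, 11 were measured, at 27.4% ± 1.17 in control and 25.1% ± 3.96 in arsenic. In no pair of samples did over 1.69% of CpGs have identical counts. The sample titles state no pairing by replicate number, and the main tests used none. Alternatives changed the window, the starts, the coverage, the averaging, the strands, the scale and the samples included.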

Additional observations from a re-analysis of the deposited data

Results flagged for a closer look

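Utf1 in arsenic 4 was at 7.06%, beside 1.69 to 2.74% in the other 4 arsenic pools, a gap large for the range of the group by Dixon's test. The pooled reads of the gene gave 3.59% in arsenic 4 and 3.71% in arsenic 3, so the gap was seen in the mean over CpGs and not in the pooled reads. Of the 18 sets of 5 pools tested, 9 genes in 2 groups, this was the only one marked, and chance marks about 1 in 20.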

How the results depend on the processing

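Limma called 0 listed genes and 0 other pathway genes under all 21 alternatives, 1 of which, a mean-variance trend, was added after seeing the data. The count of listed genes with an exact permutation p under 0.05, 0 as reported, was 1 with 1 kb either side and 1 with 1 kb upstream to 100 b downstream (Lin28a in both), 2 at a coverage of at least 20 (Lin28a, at -4.03 points, and Dppa4, at 10.3 points on 1 CpG), and 0 to 1 without each sample in turn. The DMC count of 7 was 3 with the most upstream start only, 1 with a difference of at least 20 points, 0 by the F test, and 3 to 8 without each sample in turn. With 1 kb upstream to 100 b downstream, 5.51% of all genes had an exact permutation p under 0.05. Without control 1, control 5 and arsenic 1 these shares were 5.26, 5.77 and 7.29%. For the other gene counts, and the changed DMC counts except the F test (0% of all CpGs), no such share was computed. Those counts cannot be set against a background. The cause of the changes was not tested. Single differences kept their direction and side of the threshold in 157 comparisons, came under an exact permutation p of 0.05 in 7 and reversed in 3. Not all of the 157 could change. Removing the CpGs of highest coverage or the genes with fewer than 5 CpGs left each remaining difference as it was. A block by replicate number keeps each difference, and its sign flips cannot give a p under 0.05. The reversals were Pou5f1 with the most upstream start only (10.1 points) and without control 1 (0.818, in a range of -4.63 to 0.818 without each sample in turn), and Dppa3 without control 5 (1.80, in a range of -7.37 to 1.80). Pou5f1 kept its sign but moved from -1.45 to -5.83 points by pooled reads and to -10.1 points at a coverage of at least 20. The mean over the listed genes differed by 1.23 to 3.49 points without each sample in turn, by 0.778 points over genes with at least 5 CpGs and by -0.125 points at a coverage of at least 20, within the spread of the pools. Deviations of pools with the same number correlated at -0.0584 to 0.0434. This cannot decide whether pools of the same number were prepared together, and the sample titles state no pairing. With the replicate number as a block limma called 0 listed genes, 0 other genes and 0 of the 404 cytosines. Sign flips could not give a p under 0.05 for any gene, since their smallest possible p is 0.0625. Depth limits Dppa2 (28 to 98 reads per pool, summed over 2 CpGs) and the first CpGs of Pou5f1 (10 to 32 reads).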
